A study of Arabidopsis thaliana with 57 samples.

Results

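Superoxide dismutases, catalases and ascorbate peroxidases are the enzymes with which a plant cell removes superoxide and hydrogen peroxide. Transcripts of 10 such genes were followed across 17 groups of a stress and recovery experiment in rosette leaves. The plants were Arabidopsis thaliana Col0, the usual laboratory wild type. The genes were taken from a table of 28775 genes by a list of identifiers. The list holds no rule on measured values, but it was drawn up with earlier results of these data known. They are the copper/zinc superoxide dismutases CSD1 (AT1G08830), CSD2 (AT2G28190) and CSD3 (AT5G18100), the iron superoxide dismutases FSD1 (AT4G25100) and FSD2 (AT5G51100), the catalases CAT1 (AT1G20630), CAT2 (AT4G35090) and CAT3 (AT1G20620), and the cytosolic ascorbate peroxidases APX1 (AT1G07890) and APX2 (AT3G09640). All 10 were found, and 9 were among the 19010 genes with a mean rlog of at least 3, which were tested. APX2 lay under that filter and is described from a fit without it.

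The 51 libraries used fall into 17 groups of 3 libraries, all from wild-type plants that were 18 days old at harvest. The control cabinet ran at 22 °C in the 12 h light phase, lit at 120 µmol m-2 s-1, and at 18 °C in the dark phase. End-point plants were put under stress at 15 days of age and harvested from it. Recovery plants were put under stress at 12 days, for 3 days, and then had 3 days of control conditions. In the libraries used, each setup had 8 stresses. A further stress of the series, heat-drought-high light, matched no column of the deposited values by name and was left out. Heat used 27 °C days with 23 °C nights, and high light used 350 µmol m-2 s-1. Cold used 12 °C days with 8 °C nights under 80 µmol m-2 s-1, and cold-high light the same cycle under 200 µmol m-2 s-1. For drought water was withheld, and for humidity the trays were overwatered and sealed. Heat-drought and heat-high light joined those conditions. The series asks how far responses to such stresses remain after a recovery period. Its 1 control group carries the label of the recovery setup, and its 3 libraries serve all comparisons with a control. The labels do not say whether replicates are separate cultures, so p-values here stand for the spread between libraries, which may be technical in part.

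Superoxide dismutases convert superoxide, formed mainly in illuminated chloroplasts and in mitochondria, into hydrogen peroxide and oxygen. Catalases split hydrogen peroxide in peroxisomes, where photorespiration makes much of it in leaves, and ascorbate peroxidases reduce it with ascorbate in the cytosol and the chloroplast. Plants adjust the metal of their superoxide dismutases to the copper supply. When copper is short, the transcription factor SPL7 raises FSD1 and the microRNAs miR398 and miR408, and miR398 lowers CSD1, CSD2 and their copper chaperone CCS. Mature microRNAs were not measured in these libraries.

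The 3 mature miR398 sequences and miR408 are shown because the members with the widest changes are known miR398 targets, and 1 gene of like pattern is a known miR408 target. Sequences were read from the RefSeq annotation of TAIR10.1, 5′ to 3′, with the seed, bases 2 to 8, in capitals. The 3 miR398 forms share 1 seed, and miR398b and miR398c are identical. They lie at chr2:1041012-1041032, chr5:4691107-4691127 and chr5:4694778-4694798, and miR408 at chr2:19319933-19319953, all on the plus strand.
miR398a-3p: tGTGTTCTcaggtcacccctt
miR398b-3p: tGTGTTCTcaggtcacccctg
miR398c-3p: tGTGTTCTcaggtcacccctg
miR408-3p: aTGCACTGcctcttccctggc

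The stretches of each transcript that pair best with miR398a-3p, or with miR408-3p for the plantacyanin gene ARPN, are shown next, with paired bases in capitals and mismatches, G to U pairs and unpaired bases in lower case. The CSD1 stretch lies in the 5' UTR across an intron (chr1:2827177-2827685, plus strand) and pairs at 18 of 21 bases. The CSD2 stretch lies in the coding sequence (chr2:12015572-12015593, plus strand) and pairs at 16 bases with 1 extra base in the target. The CCS stretch, also coding (chr1:4267521-4267541, minus strand), pairs at 16 bases. The ARPN stretch (chr2:827696-827717, minus strand) pairs with miR408 at 21 bases with 1 extra base. In no other member did the best stretch pair with miR398a at more than 15 bases, and a pairing stretch is a description of sequence, not a measured target. COX5B-1, which is not a member and is not shown, pairs with miR398a at 20 bases with 1 extra base. Relative to the library median it fell by 0.88 log2 units in drought, but rose by 0.46 in cold and by 0.63 in cold-high light.
CSD1: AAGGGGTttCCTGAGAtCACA
CSD2: tgcGGGTGACCTGgGaAACAtA
CCS: AttGGGaGACCTGgGAACACt
ARPN: GCCAaGGGAAGAGGCAGTGCAT

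The deposited values are rlog values, on a log2 scale. The median of the libraries stood above that of the control by 0.73 log2 units at the heat-drought end-point, by 0.54 for drought, by 0.51 for cold-high light and by 0.34 for cold. Levels below therefore have library medians aligned: the median of each library over the genes tested was subtracted and the mean of all medians, 8.08, added back. Differences are relative to the library median, in log2 units with their standard error (SE), n = 3 libraries a group, from limma with Benjamini-Hochberg adjustment over all genes tested, and a call is an adjusted p under 0.05. Where values as deposited give another call, the deposited difference is given in the paragraph on that gene or comparison. Leaf markers were high, with RBCS1A between 14.8 and 18.6, while the 4 root markers were at or near the floor of the scale. Replicate 2 of cold-high light recovery lay far from its replicates for several members, and calls that change without it are given both ways. Calls gained without this library are no independent support, since it was chosen for these members' values. Over all genes its r with its replicates was 0.9925 and 0.9926, while other libraries were lower, down to 0.9799 and 0.9864 for heat-drought end-point replicate 3. The summed level of 3 leaf mesophyll markers, in log2 units, also ran from 16.20 to 19.07 in cold-high light recovery. The spread in that group was thus not limited to the members.

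In the fit of all libraries the called changes of these genes fell in 4 of the 8 end-points. In drought 3 members passed as higher and 3 as lower of 9 tested, where 25.3% and 42.2% of all genes did. In heat-drought 4 were higher and 3 lower (32.2% and 46.5% of all genes). In cold 1 was higher and 2 were lower (18.3% and 21.7%), and in cold-high light again 1 and 2 (23.3% and 29.4%). So many genes changed in these groups that the share of members called is close to that of all genes, and it is the direction and size of single genes that differ. As deposited 6 members were higher and 2 lower in drought (61.4% and 9.57% of all genes), 6 and 1 in heat-drought (66.7% and 13.2%), 2 and 0 in cold (54.2% and 2.17%), and 4 and 1 in cold-high light (68.2% and 2.53%). The members called higher in drought and heat-drought as deposited were CSD3, FSD1, CAT1, CAT2, CAT3 and APX1. In bulk leaves, a fall through fewer cells of a type and through less RNA per cell cannot be told apart.

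**Figure D1:**
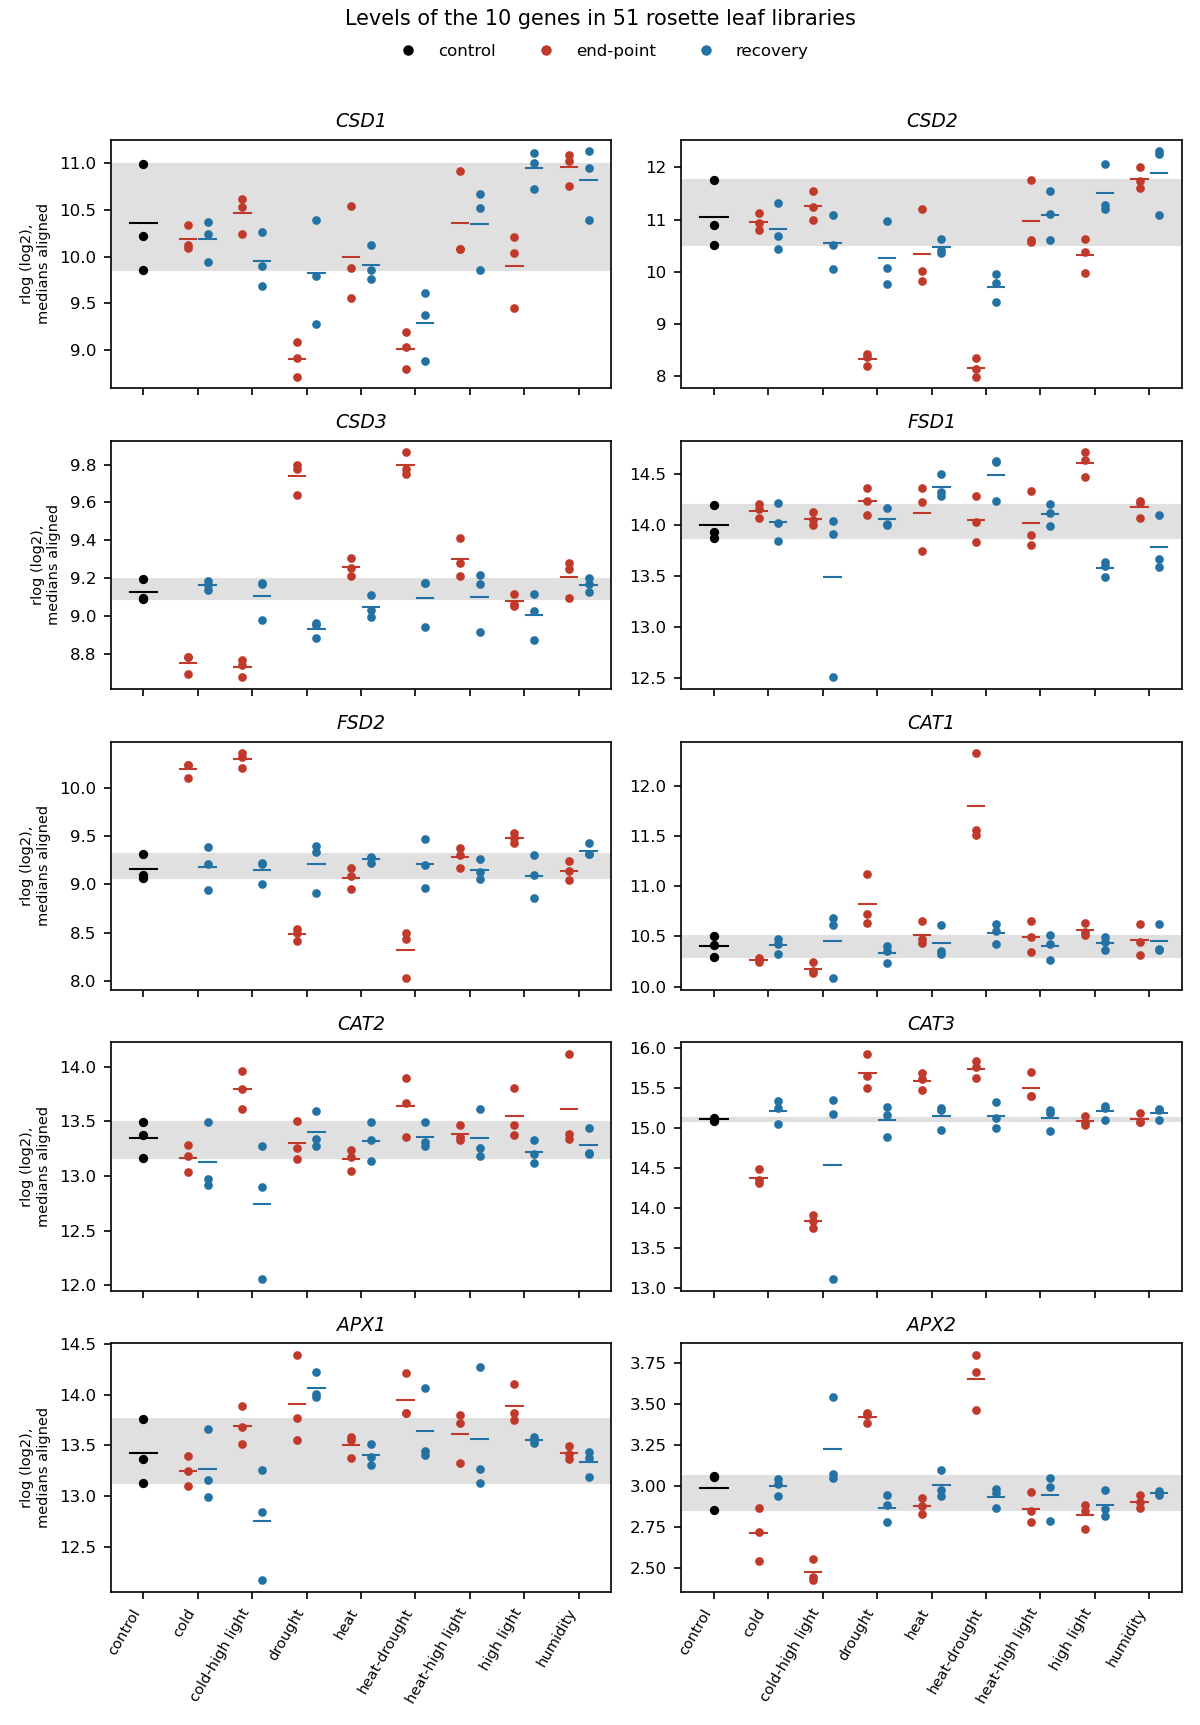
Level of each of the 10 genes (vertical axis, rlog in log2 units with library medians aligned) in each of 51 libraries by stress (horizontal axis), with points for libraries, short lines for group means and a grey band for the range of the 3 control libraries. CSD2 falls from a control mean of 11.06 to 8.33 in drought and 8.16 in heat-drought, and 1 library of cold-high light recovery lies far below its replicates for FSD1, CAT2, CAT3 and APX1.

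CSD2 (chr2:12014412-12016569, plus strand), the copper/zinc superoxide dismutase of the chloroplast, had the widest range of all members, 3.72 between its highest and lowest group means. The 3 control libraries were at 11.76, 10.89 and 10.52. Those of drought were at 8.42, 8.37 and 8.20, and those of heat-drought at 7.99, 8.14 and 8.35. Every library of both stresses was thus far under every control library, and the stressed libraries were tight although the control spread widely. CSD2 fell by 2.73 ± 0.37 in drought, 6.61-fold, with an adjusted p of 1.14e-07. It fell by 2.89 ± 0.37 in heat-drought, 7.43-fold, with an adjusted p of 1.57e-08. As deposited both falls passed as well, at -2.19 and -2.16.

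CSD1 (chr1:2827060-2829315, plus strand), the cytosolic copper/zinc enzyme, moved in the same groups by about 1.4 log2 units. Its control libraries were at 10.99, 10.22 and 9.86, with drought at 9.09, 8.72 and 8.92 and heat-drought at 8.80, 9.04 and 9.19. The groups did not overlap. It fell by 1.45 ± 0.29 in drought (adjusted p = 3.97e-05) and by 1.35 ± 0.29 in heat-drought (adjusted p = 7.13e-05). As deposited the heat-drought difference was -0.62 ± 0.30 and was not called (adjusted p = 0.0615). CSD1 overlaps AT1G08840 on the other strand, and strandedness of the counting is not given in the sources used here, so reads of the pair cannot be told apart.

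Over the means of the 17 groups CSD1 and CSD2 were each other's nearest neighbour among all genes tested, with a Pearson r of 0.97. CCS, the chaperone that loads copper into both enzymes, came next, with r of 0.95 to CSD1 and 0.93 to CSD2. ARPN, which encodes plantacyanin, a small copper protein, was the third for both, with r of 0.87 and 0.93. These values describe 17 means that share their libraries, and all 4 genes are low in the same groups. CCS fell by 1.23 ± 0.21 in drought and by 1.16 ± 0.21 in heat-drought, the latter not called as deposited at -0.42. ARPN fell by 1.14 ± 0.15 and by 1.16 ± 0.15, and both passed as deposited.

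**Figure D2:**
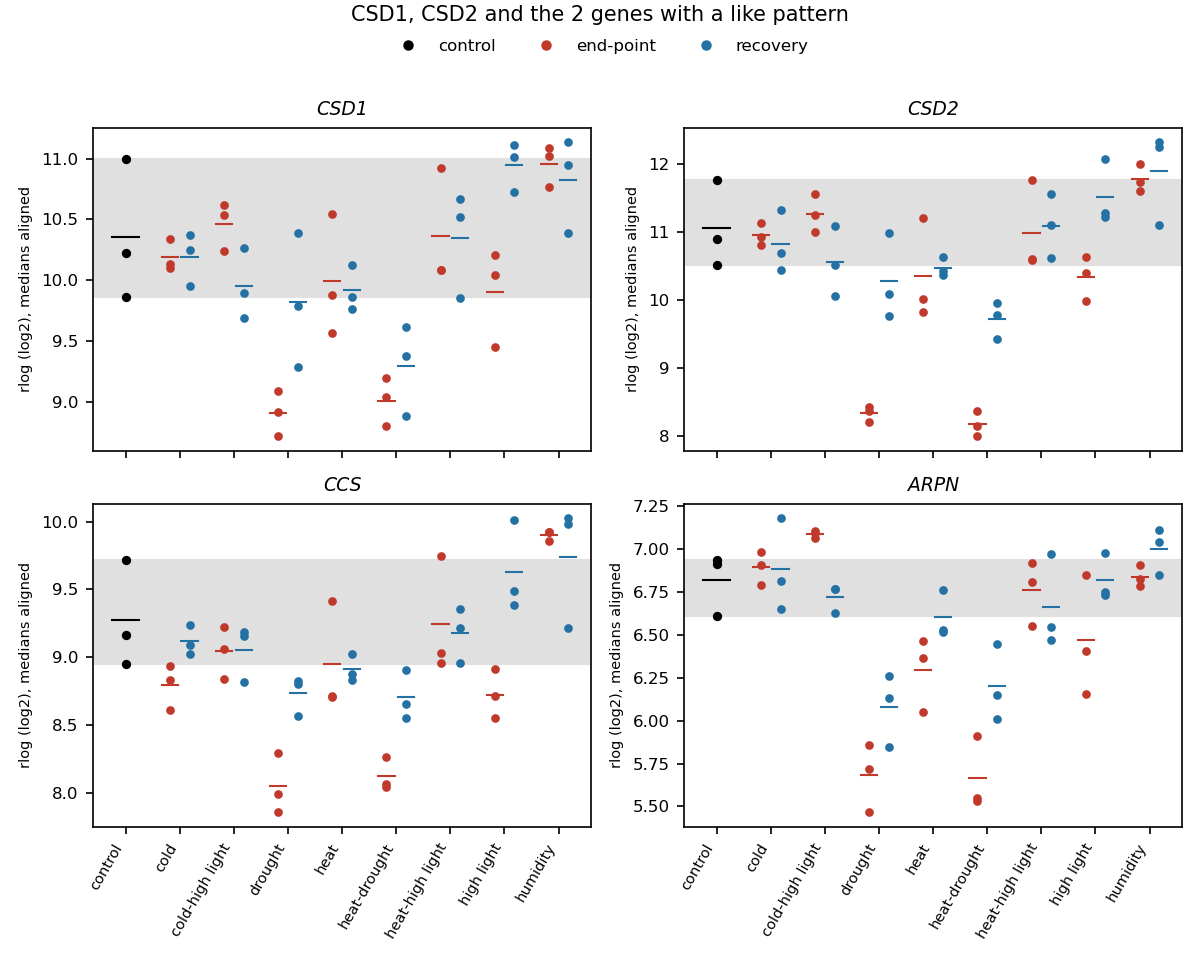
Levels of CSD1, CSD2, CCS and ARPN (vertical axis, rlog in log2 units with library medians aligned) by stress (horizontal axis), 3 libraries a group as points, means as lines and the control range as a grey band. All 4 are lowest at the drought and heat-drought end-points, where CCS is at 8.05 and 8.12 and ARPN at 5.68 and 5.66.

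The upper end of the CSD1 and CSD2 range lay in humidity and in high light recovery. CSD2 averaged 11.89 ± 0.69 (SD, n = 3) in humidity recovery, 11.78 ± 0.20 at the humidity end-point and 11.52 ± 0.48 in high light recovery, against 11.06 ± 0.64 in the control. CSD1 averaged 10.96 ± 0.17 at the humidity end-point and 10.95 ± 0.20 in high light recovery, against 10.36 ± 0.58. These groups overlapped the control, and limma called neither gene there. CCS had its highest mean in the same group as CSD1, 9.90 ± 0.04 at the humidity end-point, with all 3 libraries above the highest control library, but its difference of 0.62 ± 0.21 was not called (adjusted p = 0.0693). Of the 16 steps between neighbouring group means of CSD2, 3 exceeded the pooled SD of the 2 groups, and in 1 of them the libraries did not overlap, the step from heat-drought recovery down to the drought end-point.

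The spread of CSD1 and CSD2 within groups was also wide, with a median SD within groups of 0.29 and 0.46 against 0.06 for CSD3. Control replicate 1 had the highest value of both genes and replicate 3 the lowest. At the heat end-point, replicate 3 was highest for both, at 10.5 for CSD1 and 11.20 for CSD2, while its replicates were under 9.9 and 10.1.

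CSD3 (chr5:5987187-5988885, plus strand), the copper/zinc enzyme of peroxisomes and not a known miR398 target, went the other way. Its control libraries were at 9.09, 9.09 and 9.20, drought at 9.80, 9.64 and 9.78, and heat-drought at 9.75, 9.78 and 9.87. The 6 stressed libraries stood above all 3 of the control. CSD3 rose by 0.61 ± 0.07 in drought (adjusted p = 2.89e-09) and by 0.67 ± 0.07 in heat-drought (adjusted p = 1.01e-10). In cold its libraries were at 8.79, 8.79 and 8.69, and in cold-high light at 8.74, 8.77 and 8.68, all under the control. It fell by 0.37 ± 0.07 in cold and by 0.40 ± 0.07 in cold-high light relative to the median, but as deposited the differences were -0.03 and 0.12 and neither was called. CSD3 overlaps AT5G02875 and AT5G18110 on the other strand.

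FSD1 (chr4:12884300-12887011, minus strand), the iron superoxide dismutase that copper shortage raises, was not called relative to the median in the groups in which CSD2 fell. Its control libraries were at 13.88, 13.94 and 14.20, drought at 14.37, 14.24 and 14.10, and heat-drought at 14.28, 14.03 and 13.84. The groups overlapped, and the differences were 0.23 ± 0.22 and 0.04 ± 0.22, neither called. As deposited both passed as higher, at 0.77 and 0.78, and so did cold at 0.48 and cold-high light at 0.57. After quantile normalization drought was called as well, at 0.38 ± 0.14 (adjusted p = 0.0188). FSD1 had its highest mean at the high light end-point, where the libraries were at 14.48, 14.64 and 14.72, all above the control. That difference, 0.61 ± 0.22, was not called in the fit of all libraries (adjusted p = 0.17). It was called as deposited at 0.74 (adjusted p = 0.03) and with only the groups compared (adjusted p = 0.0021). Without replicate 2 of cold-high light recovery it was also called (adjusted p = 0.0141). The limma fit of both groups with a replicate block called it too (adjusted p = 0.000284). The labels give no pairing of replicates. That block and that omission were chosen after seeing these data, so both calls are no independent support.

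FSD2 (chr5:20773235-20775739, minus strand), an iron superoxide dismutase of the chloroplast nucleoids, rose in cold and fell in drought. The control libraries were at 9.31, 9.07 and 9.10. Cold had 10.10, 10.23 and 10.23, and cold-high light 10.36, 10.32 and 10.21. FSD2 rose by 1.03 ± 0.12 in cold, 2.04-fold (adjusted p = 1.91e-08), and by 1.14 ± 0.12 in cold-high light, 2.20-fold (adjusted p = 3.45e-10), and both passed as deposited. In drought it stood at 8.53, 8.49 and 8.42, and in heat-drought at 8.50, 8.44 and 8.02. It fell by 0.68 ± 0.12 and 0.84 ± 0.12 there, but as deposited the differences were -0.14 and -0.10 and neither was called. A fall of FSD2 in drought is thus a fall against the other genes of the library.

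**Figure D3:**
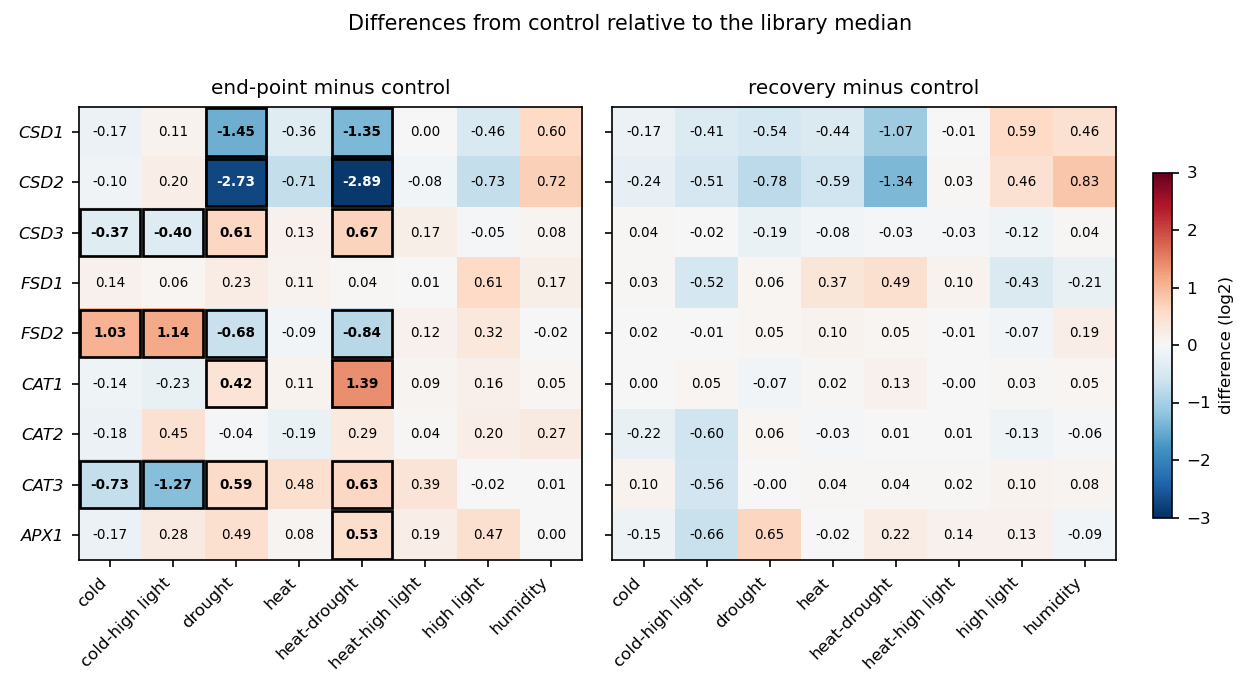
Differences from the control relative to the library median (colour and printed value, log2) for the 9 members tested (rows) at each end-point (left) and in each recovery (right), with boxes around those limma called at an adjusted p under 0.05. Boxes lie in cold, cold-high light, drought and heat-drought at the end-point, and none lies in recovery.

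Among the catalases, CAT3 (chr1:7142972-7146540, plus strand) moved in both directions. It is known for a daily rhythm opposite in phase to that of CAT2, and all leaves were taken at 1 time of day. Control libraries were at 15.11, 15.09 and 15.12. Cold had 14.35, 14.48 and 14.32 and cold-high light 13.84, 13.91 and 13.75. CAT3 fell by 1.27 ± 0.27 in cold-high light, 2.42-fold (adjusted p = 0.000102), and this passed as deposited too. It fell by 0.73 ± 0.27 in cold (adjusted p = 0.0271), which was not called as deposited at -0.39.

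CAT3 was higher in drought, at 15.93, 15.65 and 15.50, and in heat-drought, at 15.76, 15.83 and 15.63. It rose by 0.59 ± 0.27 in drought, with an adjusted p of 0.05 after rounding that lies just under the threshold, and by 0.63 ± 0.27 in heat-drought (adjusted p = 0.0295). All libraries of the heat end-point, at 15.62, 15.68 and 15.47, also lay above the control, with a difference of 0.48 ± 0.27 that was not called (adjusted p = 0.423). It was called with only the groups compared (adjusted p = 0.00452) and after quantile normalization at 0.60 (adjusted p = 0.03). The SE of CAT3 in the shared fit rested on replicate 2 of cold-high light recovery, at 13.11 against 15.35 and 15.17. Without that library the SE was 0.11, the heat difference was called (adjusted p = 0.0137), and so was that between cold-high light and cold, -0.55 (adjusted p = 0.00179). The library was chosen for such values, so the smaller SE and the calls it brings are no independent support.

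With all libraries the calls of CAT3 were also lost on leaving out single libraries. In cold the adjusted p was 0.0685 and 0.0692 without end-point replicates 1 and 3, and 0.0565, 0.0582 and 0.0646 without control replicates 1, 2 and 3. In drought it ran from 0.0732 to 0.169 without drought replicate 1 or 2 or any control replicate. In heat-drought it ran from 0.0535 to 0.075 without heat-drought replicate 1 or 2 or any control replicate. The differences themselves moved less, between 0.47 and 0.61 in drought.

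CAT1 (chr1:7146636-7150180, plus strand), a catalase known to respond to abscisic acid, lies downstream of CAT3 on the same strand, with 95 bases between the annotated end of CAT3 and its start. It had its highest level at the heat-drought end-point, at 11.56, 11.51 and 12.33, against 10.51, 10.41 and 10.30 in the control. Drought lay between, at 10.72, 10.63 and 11.12. CAT1 rose by 1.39 ± 0.14 in heat-drought, 2.63-fold (adjusted p = 1.05e-11), and by 0.42 ± 0.14 in drought (adjusted p = 0.00867), and both passed as deposited. Without drought replicate 3 the drought difference was 0.27 and was not called (adjusted p = 0.117). Heat alone gave 0.11 ± 0.14, with overlapping libraries. The interaction of heat with drought, the part of the combined difference beyond the sum of both single ones on the log2 scale, was 0.87 ± 0.20 for CAT1 (adjusted p = 0.00297), where 7.97% of all genes passed as positive and 8.22% as negative. CAT1 was the 1 member called in that interaction, and with the 4 groups fitted alone it was not called (adjusted p = 0.118). Without replicate 2 of cold-high light recovery CAT3 was called too, at -0.44 (adjusted p = 0.0388).

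The 95 bases between CAT3 and CAT1 and the 250 bases before APX2 are shown because CAT1 and APX2 had their highest means in heat-drought and hold an abscisic acid or heat shock motif there. Capitals mark ACGTG, the core of abscisic acid response elements, on the other strand in CAT1 (chr1:7146541-7146635), and GAANNTTC, a heat shock element, in APX2 (chr3:2955906-2956155). Both are on the plus strand, from RefSeq TAIR10.1, and end at the base before the annotated start. In windows of 250 bases before to 50 after the start, ACGTG on either strand occurs in 26.7% of 27443 genes and GAANNTTC in 11.6%. The window of CSD1 also holds 2 separate matches of ACGTG. That of APX2 holds 1 CACGTG, left in lower case, which matches ACGTG on both strands. The window of APX1 holds 1 match of each motif, while CSD3 and CAT3, also highest in heat-drought, hold neither. CSD1 was among the members that fell in drought. A match is a feature of sequence, not a measured site.
CAT1: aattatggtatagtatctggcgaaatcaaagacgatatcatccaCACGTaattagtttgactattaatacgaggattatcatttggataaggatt
APX2: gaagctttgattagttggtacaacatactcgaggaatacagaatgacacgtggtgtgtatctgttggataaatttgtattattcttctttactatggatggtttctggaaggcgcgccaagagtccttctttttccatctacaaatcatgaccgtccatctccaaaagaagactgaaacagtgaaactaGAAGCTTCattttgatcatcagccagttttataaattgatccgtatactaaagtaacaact

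CAT2 (chr4:16700312-16703504, minus strand), the main catalase of photorespiring leaves, stayed within a narrow range, and none of its 16 steps between neighbouring groups exceeded the pooled SD. Control libraries were at 13.49, 13.17 and 13.38. Its highest mean was at the cold-high light end-point, at 13.80, 13.62 and 13.97, above all control libraries. The difference of 0.45 ± 0.20 was not called in the fit of all libraries (adjusted p = 0.0592). It was called as deposited at 0.96, with only the groups compared (adjusted p = 0.0162), without a filter (adjusted p = 0.0426), with the replicate block (adjusted p = 0.0152) and without replicate 2 of cold-high light recovery (adjusted p = 0.0199). Drought gave -0.04 ± 0.20 and heat-drought 0.29 ± 0.20, neither called, while as deposited both were called higher, at 0.50 (adjusted p = 0.0229) and 1.03 (adjusted p = 8.16e-06). CAT2 overlaps AT4G35080 on the other strand.

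Within 1 library, CAT2 minus CAT3 does not depend on how libraries are scaled. It averaged -1.76 ± 0.16 (SD, n = 3) in the control and -0.04 ± 0.26 at the cold-high light end-point, a shift of 1.72 towards CAT2 with no overlap. In cold it shifted by 0.54, in drought by -0.63, in heat by -0.68 and in heat-high light by -0.35, each with no overlap between the 3 libraries and the control. CSD2 minus FSD1 went from -2.95 ± 0.79 in the control to -5.91 ± 0.04 in drought and -5.89 ± 0.40 in heat-drought. At the high light end-point it was -4.28 ± 0.40, a shift of -1.33, again without overlap. For each of these 8 shifts the exact permutation test over libraries (two-sided) gave p = 0.1, the smallest p that 3 against 3 allow, and 0.2 after adjustment over 16 tests.

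**Figure D4:**
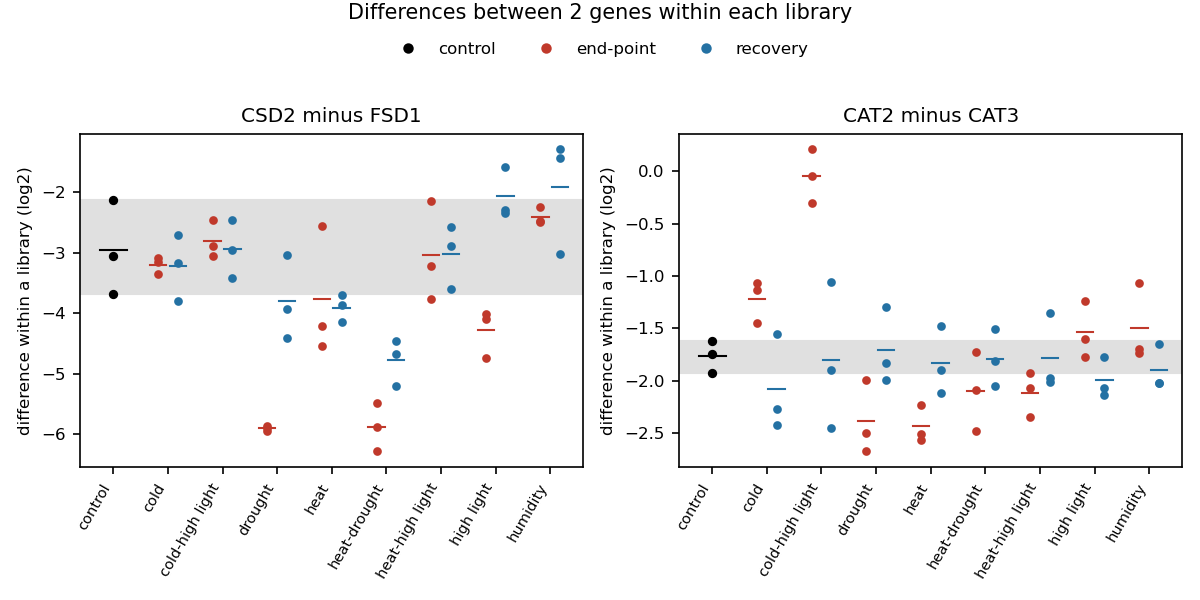
Difference between 2 genes within each library (vertical axis, log2) by stress (horizontal axis) for CSD2 minus FSD1 (left) and CAT2 minus CAT3 (right), with libraries as points, means as lines and the control range as a grey band. The left panel is lowest in drought and heat-drought, near -5.9, and the right panel highest at the cold-high light end-point, near 0.

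APX1 (chr1:2437281-2439665, plus strand), the main cytosolic ascorbate peroxidase, was at 13.76, 13.13 and 13.37 in the control. At the heat-drought end-point it was at 13.82, 13.82 and 14.21, just above all control libraries. It rose by 0.53 ± 0.23 (adjusted p = 0.0381), which was lost without control replicate 2 (0.38, adjusted p = 0.181), without control replicate 3 (0.50, adjusted p = 0.0834) or without heat-drought replicate 3 (0.40, adjusted p = 0.165). In drought the libraries were at 13.77, 13.56 and 14.40, overlapping the control, and the difference of 0.49 ± 0.23 was not called (adjusted p = 0.0641). Without replicate 2 of cold-high light recovery it was called (adjusted p = 0.0474). As deposited APX1 was called in drought, heat-drought and cold-high light, at 1.02, 1.26 and 0.79. Its highest mean lay in drought recovery, with all 3 libraries between 13.98 and 14.23 and a difference from the control of 0.65 ± 0.23 that was not called (adjusted p = 0.207).

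APX2 (chr3:2956156-2958330, plus strand), the cytosolic isoform known to appear under excess light and heat, was close to the floor of the scale in all groups. Control libraries were at 2.85, 3.06 and 3.06. Heat-drought had 3.46, 3.80 and 3.70, and drought 3.43, 3.39 and 3.45. In the fit without a filter on low values APX2 was higher by 0.67 ± 0.09 in heat-drought (adjusted p = 3.4e-09) and by 0.43 ± 0.09 in drought (adjusted p = 2.67e-05). It was lower by 0.52 ± 0.09 in cold-high light, at 2.42, 2.44 and 2.56, with no overlap with the control, but the deposited means were 2.82 in cold-high light and 2.83 in the control. In heat-drought the deposited mean was 4.23. The rlog scale pulls weakly expressed genes towards their mean, so these differences may be understated, and centring lowers such genes where the library median is high. High light, at 2.73, 2.89 and 2.85, and heat, at 2.88, 2.83 and 2.93, overlapped the control.

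In the other 4 end-points limma called 0 of the 9 members relative to the median in the fit of all libraries. At the heat end-point 0.8% of all genes passed, in heat-high light 0.242%, in high light 1.09% and in humidity 5.89%. At an unadjusted p under 0.05 the members counted 0 in heat, 1 in heat-high light (CSD3), 2 in high light (FSD1 and FSD2) and 1 in humidity (CSD1). Of all genes 13.8%, 8.33%, 15.2% and 18.6% passed so, in that order. As deposited high light had 2 members higher and 0 lower, FSD1 and FSD2, at 0.74 and 0.45 (3.02% and 0.442% of all genes). In heat, heat-high light and high light, deviations of same-number libraries correlated with those of the control. The labels give no such pairing, so a block was chosen from these data and its calls are no independent support. A fit of only those groups with the replicate block called 1 member in heat, CAT3 by 0.48 ± 0.08 (adjusted p = 0.00225). In high light it called FSD1 by 0.61 ± 0.08 and FSD2 by 0.32 ± 0.07 (adjusted p = 0.0162), and in heat-high light it called 0. The planned fit of only the groups compared, without a block, called CAT3 in heat (adjusted p = 0.00452). It also called CAT3 in heat-high light, by 0.39 ± 0.07 (adjusted p = 0.0189). In high light that fit called FSD1 (adjusted p = 0.0021) and FSD2 (adjusted p = 0.0253). The interaction of heat with high light called 0 members (0.00526% of all genes, 0 members as deposited). At an unadjusted p under 0.05 it had 3 members, against 9.86% of all genes. Cold-high light against cold called 0 as well (3.31% of all genes), and 1 higher and 0 lower as deposited, CAT2 by 0.80 (18.4% and 0.647% of all genes). At an unadjusted p under 0.05 that comparison had 2 members, CAT2 and CAT3, against 18.1% of all genes. Without replicate 2 of cold-high light recovery both CAT2, by 0.63 (adjusted p = 0.0191), and CAT3 were called. With only the groups compared both were called as well (adjusted p = 0.00472 for CAT2 and 1.8e-06 for CAT3).

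**Figure D5:**
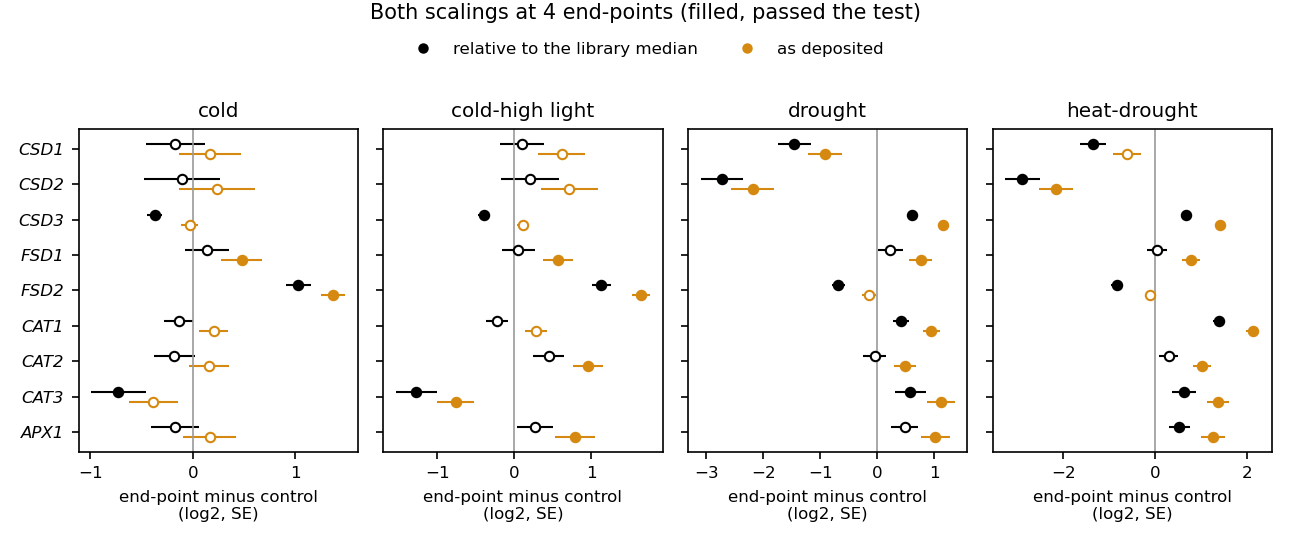
Difference from the control (horizontal axis, log2, bars are SE) of the 9 members tested at 4 end-points, relative to the library median (black) and as deposited (orange), filled where limma called it. The deposited values lie to the right in all 4 panels by the shift of the library median. This ends the calls of CSD3 in cold and cold-high light, CAT3 in cold, CSD1 in heat-drought and FSD2 in drought and heat-drought. It adds calls of FSD1 in all 4 panels, of CAT2 in all but cold, and of APX1 in cold-high light and drought.

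In recovery, no member was called against the control. In each of the 8 recoveries limma called 0 of 9 members and 0 of 19010 genes (0%), and 0 members as deposited, after quantile normalization, without trend and robust variances, or with only the groups compared. At an unadjusted p under 0.05 the members counted 4 in cold-high light, 3 in drought, 3 in heat-drought, 1 in high light, 1 in humidity, and 0 in cold, heat and heat-high light. Of all genes 12%, 15%, 2.1%, 8.79%, 1.38%, 1%, 1.19% and 1.33% passed so, in that order. Leaving out cold-high light recovery replicate 3 gave 4 calls there, FSD1, CAT2, CAT3 and APX1, all lower, with replicate 2 as 1 of the 2 libraries left. The share of all genes called in that fit was not counted. Without replicate 2 the same group had 0 calls, and FSD1 differed from the control by -0.03 ± 0.16.

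The largest difference left in recovery was that of CSD1 and CSD2 after heat-drought. CSD2 stood at 9.43, 9.95 and 9.78 and CSD1 at 8.88, 9.61 and 9.37, all under the lowest control library. The differences were -1.34 ± 0.37 and -1.07 ± 0.29, neither called (adjusted p = 1 for both). After drought CSD2 stood at 9.76, 10.08 and 10.98, overlapping the control, with a difference of -0.78 ± 0.37 (adjusted p = 0.317). CSD3, FSD2, CAT1 and CAT3 lay within 0.2 of the control after both of these stresses. CSD3 after drought, at 8.95, 8.88 and 8.96, was still under all control libraries. FSD1 after heat-drought, at 14.63, 14.62 and 14.24, was above all control libraries, the highest being at 14.20. Its libraries also lay above the control range in heat recovery and under it in high light recovery. None of these differences was called.

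Recovery was also compared with its own end-point. After drought, 3 members rose (39.3% of all genes did) and 2 fell (24.6%). CSD2 rose by 1.94 ± 0.37, FSD2 by 0.73 ± 0.12 and CSD1 by 0.92 ± 0.29, while CSD3 fell by 0.81 ± 0.07 and CAT1 fell by 0.49 ± 0.14. CSD1 was not called as deposited (0.50), nor without drought recovery replicate 3 (0.63, adjusted p = 0.0754). CAT3 differed by -0.59 ± 0.27 and was not called in the fit of all libraries (adjusted p = 0.0516). It was called without replicate 2 of cold-high light recovery (SE 0.11, adjusted p = 1.13e-05), as deposited (adjusted p = 0.000336), after quantile normalization (adjusted p = 8.7e-05) and with only the groups compared (adjusted p = 0.0145). APX1 differed by 0.16 ± 0.23. As deposited CSD2 and FSD2 rose and CSD3, FSD1, CAT1 and CAT3 fell, 2 and 4 members (10.5% and 54.7% of all genes).

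After heat-drought, 2 members rose (45.9% of all genes) and 3 fell (32.1%). CSD2 rose by 1.55 ± 0.37 and FSD2 by 0.89 ± 0.12, the latter not called as deposited at 0.18. CAT1 fell by 1.26 ± 0.14, CSD3 fell by 0.70 ± 0.07 and CAT3 fell by 0.59 ± 0.27. The CAT3 call was lost without any 1 of heat-drought end-point replicates 1, 2 and 3 or recovery replicates 2 and 3, with adjusted p from 0.0515 to 0.116. CSD1 differed by 0.28 ± 0.29 and was not called. FSD1 differed by 0.45 ± 0.22 and was not called in the fit of all libraries. It was called after quantile normalization at 0.36 (adjusted p = 0.0209) and with only the groups compared (adjusted p = 0.0362). Without replicate 2 of cold-high light recovery it was called too (adjusted p = 0.00378). As deposited CSD2 rose and CSD3, CAT1, CAT2, CAT3 and APX1 fell, 1 and 5 members (13% and 66.2% of all genes).

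After cold, CSD3 and CAT3 rose (2 of 9, against 20.8% of all genes) and FSD2 fell (1 of 9, against 17.3%). FSD2 fell by 1.01 ± 0.12, with recovery libraries at 8.94, 9.39 and 9.21. CAT3 rose by 0.83 ± 0.27 and CSD3 by 0.41 ± 0.07, and as deposited these were 0.49 and 0.07 and not called. As deposited 0 members rose and 2 fell, FSD1 and FSD2 (1.91% and 54.5% of all genes).

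After cold-high light, 2 members rose (32.2% of all genes) and 4 fell (27.1%). FSD2 fell by 1.15 ± 0.12 with all libraries and by 1.08 ± 0.13 without replicate 2 of the recovery. CSD3 rose by 0.38 ± 0.07 and by 0.44 ± 0.08 without it, but as deposited with all libraries the difference was -0.11 and not called. CAT2 fell by 1.05 ± 0.20, and by 0.71 ± 0.18 without that library. APX1 fell by 0.94 ± 0.23, and by 0.64 ± 0.24 without it, but after quantile normalization with all libraries its difference was 0.0020. FSD1 fell by 0.57 ± 0.22 with all libraries, but turned to 0.31 after quantile normalization, and its difference was -0.08 ± 0.16 without replicate 2 and -0.54 without end-point replicate 2, neither called. CAT3 rose by 0.71 ± 0.27, and by 1.43 ± 0.12 without replicate 2. With all libraries CAT3 was not called as deposited, nor without recovery replicate 1 (0.31), recovery replicate 3 (0.40) or end-point replicate 3 (0.67). CAT1 was called as higher, by 0.47 ± 0.14, without replicate 2. With all libraries its difference of 0.28 was not called, but after quantile normalization it was, at 0.59 ± 0.11 (adjusted p = 3.54e-05). After quantile normalization or with only the groups compared, CAT2, FSD1 and APX1 were not called. The fit of only the groups compared called CSD1 lower, at -0.52 (adjusted p = 0.00248), and CSD2 lower, at -0.71 (adjusted p = 0.00244). As deposited 0 members rose and 6 fell, CSD1, CSD2, FSD1, FSD2, CAT2 and APX1 (3.57% and 64% of all genes).

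After high light, CSD1 rose by 1.05 ± 0.29 (adjusted p = 0.0482) and FSD1 fell by 1.03 ± 0.22 (adjusted p = 0.00666), 1 member in each direction where 0.473% of all genes rose and 1.37% fell. CSD1 libraries were at 10.04, 10.21 and 9.45 at the end-point and at 11.11, 11.01 and 10.72 in recovery. FSD1 libraries were at 14.48, 14.64 and 14.72 at the end-point and at 13.64, 13.49 and 13.60 in recovery. Neither pair of groups overlapped. CSD2 differed by 1.19 ± 0.37 and was not called (adjusted p = 0.0933), but after quantile normalization it was, at 1.27 (adjusted p = 0.0411). FSD2 differed by -0.40 ± 0.12 and was not called in the fit of all libraries. It was called without replicate 2 of cold-high light recovery (adjusted p = 0.0458) and without high light recovery replicate 1 (-0.50, adjusted p = 0.0209). The CSD1 call was lost as deposited (1.02) and without any 1 of the 6 libraries, with adjusted p from 0.0663 to 0.303. As deposited 0 members rose and 2 fell, FSD1 and FSD2 (0.505% and 2.66% of all genes). The FSD1 call passed as deposited and was lost without high light end-point replicate 3 (-0.98, adjusted p = 0.0701) or recovery replicate 2 (-0.99, adjusted p = 0.0584).

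In the other 3 recoveries limma called no member against the end-point, 0 of 9 after heat (0.757% of all genes), after heat-high light (0.184%) and after humidity (7.55%). At an unadjusted p under 0.05 the counts were 1, 1 and 0 (14.4%, 8.87% and 20.1% of all genes), and as deposited limma called 0 in each. Quantile normalization and the fit of only the groups compared each called 1 member after heat, CAT3, and so did the fit without replicate 2 of cold-high light recovery (-0.44 ± 0.11, adjusted p = 0.021).

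The other genes of these pathways were counted from lists chosen with earlier results of these data known. The list of other superoxide dismutase genes had 3 genes tested and also held CCS, which is their copper chaperone and not a dismutase. Of these 3, 2 rose and 0 fell in both cold groups. In both drought groups 1 rose and 2 fell, CCS being 1 of the 2. Its fall in heat-drought was not called as deposited (-0.42). FSD3, the partner of FSD2 in the chloroplast, rose by 0.68 ± 0.13 in cold and by 0.98 ± 0.13 in cold-high light, and fell by 0.86 ± 0.13 in drought and by 1.03 ± 0.13 in heat-drought. MSD1, the manganese enzyme of mitochondria, rose by 0.36 ± 0.10 in cold, 0.41 ± 0.10 in drought and 0.59 ± 0.10 in heat-drought. Of 6 other ascorbate peroxidase genes, 0 rose and 4 fell in drought and 0 rose and 3 fell in heat-drought, but as deposited 3 rose and 0 fell and 4 rose and 2 fell. In cold 1 of these rose and 1 fell, and in cold-high light 1 and 3, against 2 and 0 and 3 and 0 as deposited. SAPX of the stroma rose by 1.22 ± 0.15 in cold-high light, and TAPX of the thylakoid fell by 1.16 ± 0.15 in heat-drought.

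Of 10 genes that recycle ascorbate and glutathione, 6 rose and 2 fell in drought and 5 and 3 in heat-drought, and as deposited 7 rose and 1 fell in both. DHAR1, a dehydroascorbate reductase, rose by 1.98 ± 0.14 in drought and by 1.86 ± 0.14 in heat-drought. Of 13 peroxiredoxin and glutathione peroxidase genes, 5 rose and 5 fell in drought and 4 and 5 in heat-drought, and as deposited 8 and 2 and 8 and 4. PRXIIB of the cytosol rose by 1.52 ± 0.09 in heat-drought, while 2CPA of the chloroplast fell by 1.90 ± 0.21. Of 10 copper economy genes, 4 rose and 4 fell in drought and 3 and 5 in heat-drought (as deposited 6 and 2 and 6 and 3), with YSL2, a metal transporter, higher by 2.35 ± 0.15 and the plastocyanin gene PETE2 lower by 1.19 ± 0.31 in drought. These counts stand against the shares of all genes that rose and fell given above, 25.3% and 42.2% in drought, 32.2% and 46.5% in heat-drought, 18.3% and 21.7% in cold and 23.3% and 29.4% in cold-high light. Apart from CCS in heat-drought, the genes named passed in the same direction as deposited. In each recovery limma called 0 genes of these lists against the control.

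The other members had like patterns as follows, with Pearson r over the same 17 group means. FSD2 was nearest to AT5G23250, to the DNA gyrase gene GYRA (both r = 0.99) and to SHS1 (r = 0.988). CSD3 was nearest to TAP38, a thylakoid phosphatase (r = 0.984), AT1G48540 and AAE1. CAT1 was nearest to AT2G38410, the phospholipase D gene PLDP2 and CHAT, with r from 0.977 to 0.979. CAT3 was nearest to CYP71B20 (r = 0.958), RPS6 and the metallothionein gene MT3. For APX1 and CAT2 the likeness was weaker, with the aconitase gene ACO3 at r = 0.892 and the profilin gene PFN2 at r = 0.861, and APX3, the ascorbate peroxidase of peroxisomes, the third for CAT2 at r = 0.821. FSD1 had no near neighbour, its highest r being 0.68, to AT3G44620.

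Cell type markers moved as well. The 3 leaf mesophyll markers all fell in drought and in heat-drought, and their summed level, in log2 units, was 17.39 to 18.22 in drought and 16.24 to 17.19 in heat-drought against 19.00 to 19.02 in the control. Of 4 guard cell markers 3 fell in each. Of 4 phloem markers 2 rose in each and 1 fell in heat-drought, with a summed level of 13.43 to 13.49 in drought and 13.52 to 13.66 in heat-drought against 12.83 to 12.98. The guard cell sum was 9.29 to 9.64 in drought and 8.98 to 9.35 in heat-drought against 10.21 to 10.22. The 4 root markers were under the filter in all groups, as were CLV3 and AP1. In cold 1 of 4 guard cell markers and 2 of 4 phloem markers fell, and in cold-high light 1 of 3 mesophyll, 1 of 4 guard cell and 2 of 4 phloem markers. The guard cell sum was 9.91 to 9.97 in cold and 9.81 to 9.92 in cold-high light, while the mesophyll sum was 18.83 to 19.07 over both groups. In cold-high light recovery the mesophyll sum ran from 16.20 to 19.07 and the phloem sum from 12.26 to 12.97. The part of these shifts in the changes of the members was not tested.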

How the data were processed

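RNA of Arabidopsis thaliana rosette leaves was sequenced in 57 libraries. The authors deposited 1 table of regularized log (rlog) values, on a log2 scale shrunken towards the gene mean at low counts, made with Trimmomatic, STAR, featureCounts and DESeq2 on TAIR10, per the submitters' processing notes, with no versions given. Reads per library are not given in that scale, so depth is unknown and no interval was drawn from it. Column names matched 51 libraries in 17 groups. The heat-drought-high light libraries of both setups matched no column name. Another 6 columns of per-sample values matched no label and were not used, so a design planned for all 57 libraries was run on 51.

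Values were centred on each library's median over the genes tested and fitted with limma 3.58.1 in R 4.3.3 across all genes with a mean rlog of at least 3, with 1 mean per group over all 51 libraries, intensity trend and robust variances, two-sided, adjusted by Benjamini-Hochberg within each comparison at 0.05. Calculations used data.table (version 1.17.8), with pandas 2.3.3, numpy 2.4.6, scipy 1.17.1 and matplotlib 3.10.9 in Python 3.11.15. Differences within libraries were tested by exact permutation. The fit was tested on simulated data. Alternatives were the deposited scaling, quantile normalization, other filters and variances, only the groups compared, a replicate block, and leaving out libraries. Of 24 comparisons of 2 groups, 3 (heat, heat-high light and high light end-points with the control) had every same-number correlation of deviations over 0.1, the pairing coming from these data and not from the labels.

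The text names all 10 members, the 3 genes nearest to each over group means, and up to 4 genes of each list that passed both centred and as deposited with the largest differences. The members and lists were chosen with earlier results of these data known. Sequences and positions are from RefSeq TAIR10.1, matched by locus identifier.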

Additional observations from a re-analysis of the deposited data

Results flagged for a closer look

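The interaction of heat with drought for CAT1, the catalase known to respond to abscisic acid, was singled out because the effect of drought differed between 2 temperatures by a test of that difference: 0.865 ± 0.20 log2 units (limma, adjusted p = 0.00297). Heat-drought libraries were at 11.56, 11.51 and 12.33, all above the highest drought library at 11.12. With every library left out in turn the value ran from 0.60 to 1.01 and was called each time. With only the 4 groups fitted it was not called (adjusted p = 0.118), nor with the replicate block in that fit (adjusted p = 0.0967).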

How the results depend on the processing

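Of 41 called differences of members, 30 were kept whichever library was left out, 28 were kept as deposited and 23 under every other setting run. As deposited the members called counted 5 at the cold-high light end-point, 2 at the high light end-point and 1 for cold-high light against cold. Quantile normalization called 1 at the heat end-point, 1 in heat recovery against its end-point and 1 for cold-high light against cold. Without the filter, which adds APX2, the counts were 5 at the cold-high light end-point, 1 in high light recovery against its end-point and 2 for cold-high light against cold. With only the groups compared they were 5 at the cold-high light end-point, 1 in heat, 1 in heat-high light, 2 in high light, 1 in heat recovery and 1 in high light recovery against the end-points, 0 in the interaction of heat with drought and 2 for cold-high light against cold. The replicate block in the shared fit gave 1 in high light recovery against its end-point and 1 for cold-high light against cold, and moved no other count by over 1.5 times. The block with only the groups compared gave 1 in heat, 2 in high light and 0 in the interaction of heat with drought. Without replicate 2 of cold-high light recovery, an alternative chosen after seeing the data like the block with only the groups compared, the counts were 1 in heat, 1 in high light, 1 in heat recovery against its end-point, 2 in the interaction of heat with drought and 2 for cold-high light against cold. Apart from the deposited scaling, the share of all genes called under these settings was not counted. The counts are thus no result particular to the members.

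With 1 library left out, the members called ran from 0 to 2 in high light recovery against its end-point and from 0 to 4 in cold-high light recovery against the control. Signs turned for CSD3 as deposited, to 0.12 at the cold-high light end-point and to -0.11 in its recovery against the end-point, and under quantile normalization in the latter for FSD1 (0.31) and APX1 (0.0020). CSD2 minus FSD1 ran from -0.61 to 0.17 in cold, from -0.22 to 0.56 in cold-high light and from -0.54 to 0.33 in heat-high light on leaving out 1 library. The cause of these changes was not tested. Depth is unknown, so the limit it sets on APX2 cannot be given.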
